A study of Mus musculus with 6 samples.

Results

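The R-spondin system consists of 4 secreted ligands (*Rspo1*, *Rspo2*, *Rspo3* and *Rspo4*), 3 receptors (*Lgr4*, *Lgr5* and *Lgr6*) and 2 membrane E3 ubiquitin ligases (*Znrf3* and *Rnf43*) that counteract Wnt signaling. These 9 genes were taken by symbol from the 53657 gene names counted in every library, and all 9 were found. RNA was sequenced from 3 wild type (WT) mice and 3 mice with a heterozygous Hras G12V mutation (MUT), 3 months after tamoxifen, 1 library per mouse. The sorted cells were tdTomato+ and MCAM-bright cells of the adult testis, a gate enriched for undifferentiated spermatogonia. All 6 mice carried *Gfra1-creERT2* and the tdTomato reporter and received tamoxifen, on a mixed genetic background. The controls lacked only the *FR-Hras G12V* allele, in which recombination exchanges 1 wild-type *Hras* copy for the mutant one under its own promoter. Cre was driven by the *Gfra1* promoter, and the share of cells carrying the mutation was not analysed here.

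In the canonical Wnt pathway, a Wnt ligand binds Frizzled and LRP co-receptors, which stabilizes β-catenin and activates target genes through TCF/LEF factors. ZNRF3 and RNF43 ubiquitinate Frizzled and remove it from the cell surface. R-spondins bridge an LGR receptor and one of these ligases, which clears the ligase and leaves more Frizzled at the membrane. *Rnf43*, *Znrf3*, *Lgr5* and *Axin2* are themselves known β-catenin targets, and *Lgr5* marks stem cells of several epithelia. In undifferentiated spermatogonia, Wnt/β-catenin signaling is known for its link to proliferation and to the progression toward differentiation.

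The sorted cells expressed an uneven subset of the system. *Rspo4*, *Rspo2*, *Znrf3* and *Lgr4* each had over 500 counts in every library, and *Rspo1* had between 112 and 176. *Lgr6*, *Rnf43* and *Lgr5* had between 12 and 77 counts, and *Rspo3* had between 2 and 6. Per kilobase of exon (CPM per kb, where CPM are counts scaled to the library size with TMM normalization), the order of the 6-library means was *Rspo4* (13.1 ± 1.10, SD, n = 6), *Znrf3* (8.07 ± 0.761), *Rspo2* (7.64 ± 0.796), *Lgr4* (4.88 ± 0.300), *Rspo1* (3.33 ± 0.661), *Lgr6* (0.372 ± 0.0946), *Rnf43* (0.227 ± 0.0422), *Lgr5* (0.0956 ± 0.0274) and *Rspo3* (0.0444 ± 0.0230). The ranges over the libraries overlapped for the neighbors *Znrf3* and *Rspo2*, *Lgr6* and *Rnf43*, and *Lgr5* and *Rspo3*, and not for the other neighbors in this order. The widest step, 8.95-fold, separated *Rspo1* from *Lgr6*. *Rspo4* lay above 74.9% of the 19656 genes tested and *Lgr4* above 54.7%, whereas *Lgr6*, *Rnf43* and *Lgr5* lay above 11.1%, 5.69% and 0.956%. With the longest coding transcript as the length, a choice made after seeing the data, *Rspo2* (11.7 CPM per kb) came before *Znrf3* (10.1 CPM per kb) and the order was otherwise the same.

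**Figure D1:**
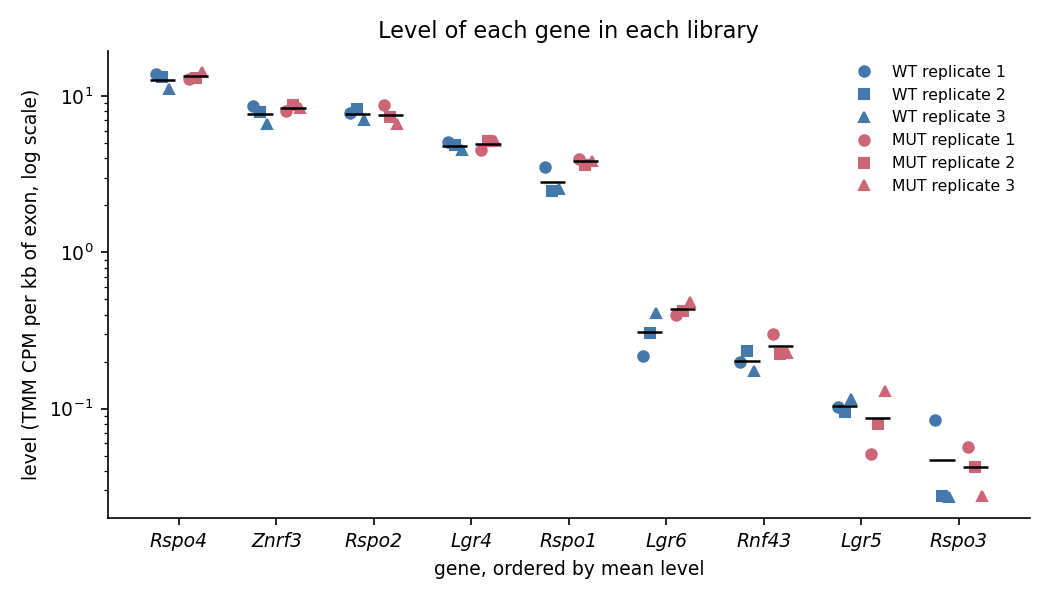
Level of each gene in each library, in TMM-normalized CPM per kb of exon on a log axis, with genes ordered by mean level. Points are single mice, blue for WT and red for MUT, with 1 marker shape per replicate number, and black lines are group means. *Rspo4*, *Znrf3*, *Rspo2*, *Lgr4* and *Rspo1* lie between 2.47 and 14.3 and the other 4 genes below 0.481, and the groups are apart only for *Rspo1*.

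RefSeq on GRCm38.p6 had windows at the start sites of 5 of the 9 genes, and none for *Rspo2* or *Znrf3*. The bases upstream of *Rspo4* and *Rspo1*, and of *Lgr4*, the receptor with the highest level, follow. They are written 5′ to 3′ on the strand of the gene with CG dinucleotides in capitals. *Rspo4* (chr2:151842677-151842926, plus strand) carried 24 CG dinucleotides, *Rspo1* (chr4:124986180-124986429, plus strand) 22 and *Lgr4* (chr2:109917397-109917646, plus strand) 10 in these 250 bases.
Rspo4: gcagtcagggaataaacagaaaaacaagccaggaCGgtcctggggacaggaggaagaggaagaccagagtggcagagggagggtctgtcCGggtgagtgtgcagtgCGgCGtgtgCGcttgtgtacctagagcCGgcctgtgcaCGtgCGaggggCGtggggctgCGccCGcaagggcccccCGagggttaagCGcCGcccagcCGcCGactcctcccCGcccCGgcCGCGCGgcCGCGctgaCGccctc
Rspo1: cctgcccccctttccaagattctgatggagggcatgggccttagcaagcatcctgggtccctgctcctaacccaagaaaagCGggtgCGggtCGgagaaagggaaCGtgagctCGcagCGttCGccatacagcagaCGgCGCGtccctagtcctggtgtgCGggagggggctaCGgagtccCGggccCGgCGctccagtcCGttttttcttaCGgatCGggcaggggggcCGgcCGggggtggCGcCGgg
Lgr4: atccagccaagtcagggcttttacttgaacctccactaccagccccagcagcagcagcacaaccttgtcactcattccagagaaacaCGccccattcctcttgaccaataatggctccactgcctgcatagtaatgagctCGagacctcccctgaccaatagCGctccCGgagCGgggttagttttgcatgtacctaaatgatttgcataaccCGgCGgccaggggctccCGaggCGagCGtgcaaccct

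Over whole windows of 300 bases (250 before the start and 50 after it), CG dinucleotides numbered 31 in *Rspo4*, 29 in *Rspo1*, 24 in *Lgr6* and 18 in *Lgr4*, where the median of all 32851 windows was 7. The 2 windows of the weakly expressed *Rnf43* had 10 and 3. *Lgr6*, with far fewer counts, thus had more CG dinucleotides than *Lgr4*. The core bound by TCF/LEF factors, CTTTGA on either strand, was in 0 of the 6 windows of these genes and in 16.0% of all windows. A sequence bound by ETS factors, CCGGAA on either strand, was in 1 of them, the second window of *Rnf43*, and in 14.9% of all windows. The shorter ETS core GGAA was not counted. No window of these genes held both sequences searched, and a match or its lack describes these letters alone.

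Each library held between 22729292 and 23550433 counts, and 3 counts, taken as the floor of detection, corresponded to between 0.127 and 0.132 CPM. *Hras* had a mean of 60.7 ± 4.21 CPM for WT against 66.7 ± 4.97 CPM for MUT (SD, n = 3 each), and tdTomato was at 61.9 ± 4.99 and 61.4 ± 7.64 CPM. Counts of the whole gene do not tell the *Hras* alleles apart. The 14 markers of undifferentiated spermatogonia summed to between 2651 and 3350 CPM, and none was at 0 in every library. Markers of other cells were present too, at 799.5 to 1556 CPM for 7 spermatocyte and spermatid genes, 761.9 to 1432 CPM for 7 macrophage genes and 37.6 to 59.5 CPM for 10 Sertoli cell genes. WT replicate 3 had the highest sum for the first 2 of these lists. MUT replicate 3 had the highest sum for 6 Leydig cell genes, 67.3 CPM against 12.9 to 21.1 CPM in the other libraries. The sums ran from 7.91 to 12.8 CPM for 5 peritubular myoid genes and 44.5 to 59.3 CPM for 6 endothelial genes. For 6 B and plasma cell genes they ran from 76.7 to 326.5 CPM in WT and from 26.5 to 89.1 CPM in MUT, so that only MUT replicate 3 reached the WT range, and their part in the results was not tested. In bulk RNA of sorted cells, fewer expressing cells and less RNA per cell cannot be told apart.

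WT and MUT were then compared to ask whether heterozygous *Hras G12V* altered any gene of the system. None of the 9 genes was called. edgeR's quasi-likelihood test covered 8 of them, since *Rspo3* did not pass the expression filter, and called 0 at an FDR of 0.1, beside 2 of all 19656 genes tested (0.0102%). The other fits called 0 of them too, beside 0.0241% of the genes with an adjusted p in DESeq2, 0.0204% in limma voom, 0.0661% in edgeR with the replicate number as a block and 0.323% in DESeq2 with that block. In edgeR without the block, the lowest adjusted p of the 8 was 0.998 (Benjamini-Hochberg), and with the block it was 0.547, for *Rspo1*. At an unadjusted p under 0.05, 1 of the 8 genes passed in edgeR without the block, *Rspo1*, where 2.78% of all genes did. DESeq2 without the block also had *Rspo1* at an unadjusted p of 0.0395, where 1.18% of all genes lay under 0.05. With the block, the unadjusted p of *Rspo1* was 0.0171 in edgeR and 0.0666 in DESeq2. The log2 fold change was positive for 6 of the 8 genes and for 51.8% of all genes, and its median was 0.10 for the 8 genes and 0.0066 for all genes. For 6 of the 8 genes the whole 95% interval of the edgeR fit without the block lay within a 2-fold change in either direction, which held for 81.6% of all genes. *Lgr5* and *Lgr6*, with few counts, were the exceptions. With 3 mice per group an exact permutation test cannot give less than p = 0.1.

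**Figure D2:**
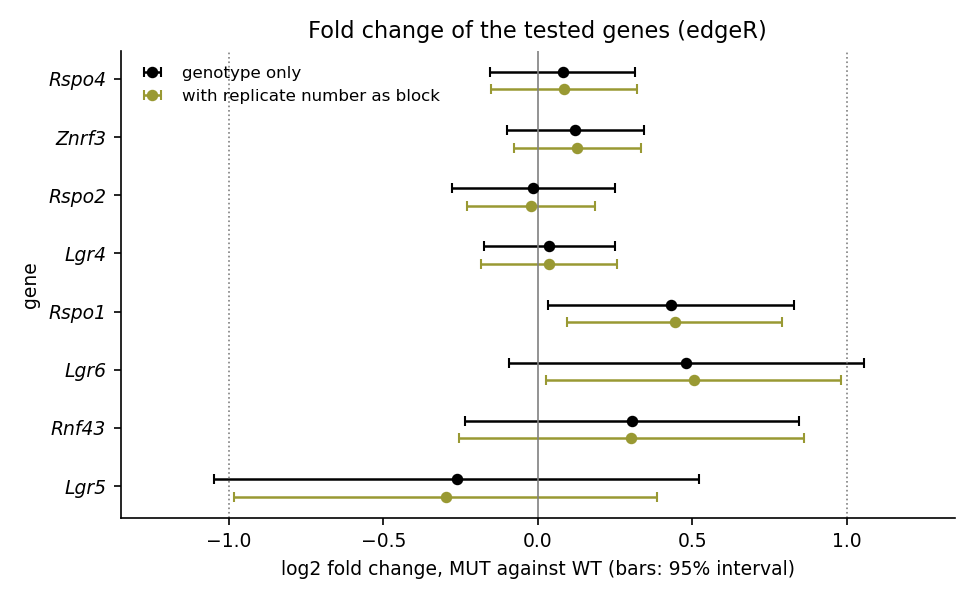
Log2 fold change of MUT against WT for the 8 genes tested, from edgeR fitted across all genes. Points are estimates and bars 95% intervals, black for the fit on genotype alone and olive for the fit with the replicate number as a block, and dotted lines mark a 2-fold change. The black interval of *Rspo1*, from 0.03 to 0.83, is the only one of that fit that leaves out 0, and those of *Lgr5* and *Lgr6* reach beyond a 2-fold change.

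Among the ligands, *Rspo1* differed most between the groups. R-spondin 1 is best known for its role in ovary development. *Rspo1*, on chromosome 4 from 124986430 to 125009099 (plus strand, GRCm38 as for all positions), was counted 155, 112 and 116 times for WT and 176, 162 and 175 times for MUT, in the order of the replicate numbers, which holds for all genes that follow. Every MUT library was above every WT library, although WT replicate 1 lay nearer to the MUT libraries than to the other WT ones. Levels had a mean of 5.49 ± 1.11 CPM for WT against 7.40 ± 0.341 CPM for MUT (SD, n = 3 each). It was the 1 gene of the 8 with the groups apart, which in the direction of higher MUT levels held for 4.69% of all genes tested. The log2 fold change was 0.43 (SE 0.17, 95% interval 0.03 to 0.83), with an unadjusted p of 0.0372 and an adjusted p of 0.998 from edgeR, so the difference did not pass. The exact two-sided permutation p was 0.1, the smallest possible. For these same libraries the study described a slight upward trend of its displayed differentiation markers in MUT. If *Rspo1* was among those markers, its direction here is no independent observation.

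The summed level of 5 markers of differentiating spermatogonia (*Kit*, *Stra8*, *Sohlh1*, *Sohlh2* and *Dmrtb1*) followed the same split as *Rspo1*. It ran from 607 to 672 CPM in WT and from 697 to 845.6 CPM in MUT, and 2 of the 5 genes had all MUT libraries above all WT ones, which held for 4.69% of all genes. The sums of all other cell type lists overlapped between the groups. For single genes the split also held for 2 of the 14 markers of undifferentiated spermatogonia, 2 of the 10 Sertoli cell genes and 1 of the 6 B and plasma cell genes. It held for 0 of the spermatocyte and spermatid, Leydig, peritubular myoid, endothelial and macrophage genes. The study's trend for differentiation markers came from these same libraries, so the split of the sum of the 5 markers is no independent observation. The sums for Sertoli cells, 37.6 to 56.9 CPM in WT and 46.7 to 59.5 CPM in MUT, overlapped. Whether the makeup of the sorted cells had a part in the *Rspo1* difference was not tested.

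*Rspo4* and *Rspo2*, the ligands with the higher levels, differed by less than the spread between replicates. *Rspo4*, a ligand known for its role in nail formation, lies on chromosome 2 from 151842927 to 151874668 (plus strand) and had 751, 735 and 621 counts in WT and 702, 718 and 792 counts in MUT. The lowest and highest values came from WT replicate 3 and MUT replicate 3, with the other 4 libraries between them. Its log2 fold change was 0.08 (SE 0.10, 95% interval -0.15 to 0.32). *Rspo2*, known for limb and lung development, lies on chromosome 15 from 43020794 to 43170826 (minus strand) and had 909, 984 and 851 counts in WT and 1029, 870 and 792 counts in MUT. MUT held both its highest and its lowest library. For *Rspo2* the log2 fold change was -0.015 (SE 0.12, 95% interval -0.28 to 0.25).

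*Rspo3*, a ligand known from blood vessel development, lies on chromosome 10 from 29452416 to 29535867 (minus strand) and was at the edge of detection. It had 6, 2 and 2 counts in WT and 4, 3 and 2 in MUT, so that 2 of the 6 libraries exceeded the floor of 3 counts. Both groups averaged near that floor, at a mean of 0.144 ± 0.102 CPM for WT against 0.130 ± 0.0447 CPM for MUT (SD, n = 3 each), and no fold change is given. A gene on the opposite strand shares 404 of its 3090 exon bases and had 0 counts in every library. Strand was ignored and ambiguous fragments were left out, so these 0 counts do not show whether *Rspo3* lost fragments in the shared bases. No exon of the other 8 genes overlapped another counted gene.

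Within the R-spondin family, the share of the summed level per kb that each ligand held was described for each library, with no test. By level per kb, *Rspo4* held 54.6 ± 0.898% (SD, n = 3) in WT and 54.1 ± 3.69% in MUT, and *Rspo2* held 33.1 ± 1.93% and 30.5 ± 3.72%. The *Rspo1* share was 13.9%, 10.3% and 12.2% for the WT mice and 15.4%, 15.0% and 15.6% for the MUT mice. Its groups were apart, but the share uses the same *Rspo1* counts as above and is no second observation. By counts, with length not divided out, the lead turned, with *Rspo2* at 52.4% in WT and 49.5% in MUT and *Rspo4* at 40.1% and 40.9%. The sum of the 4 ligands overlapped between the groups, at 23.3 ± 2.34 CPM per kb in WT and 24.9 ± 0.799 CPM per kb in MUT.

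**Figure D3:**
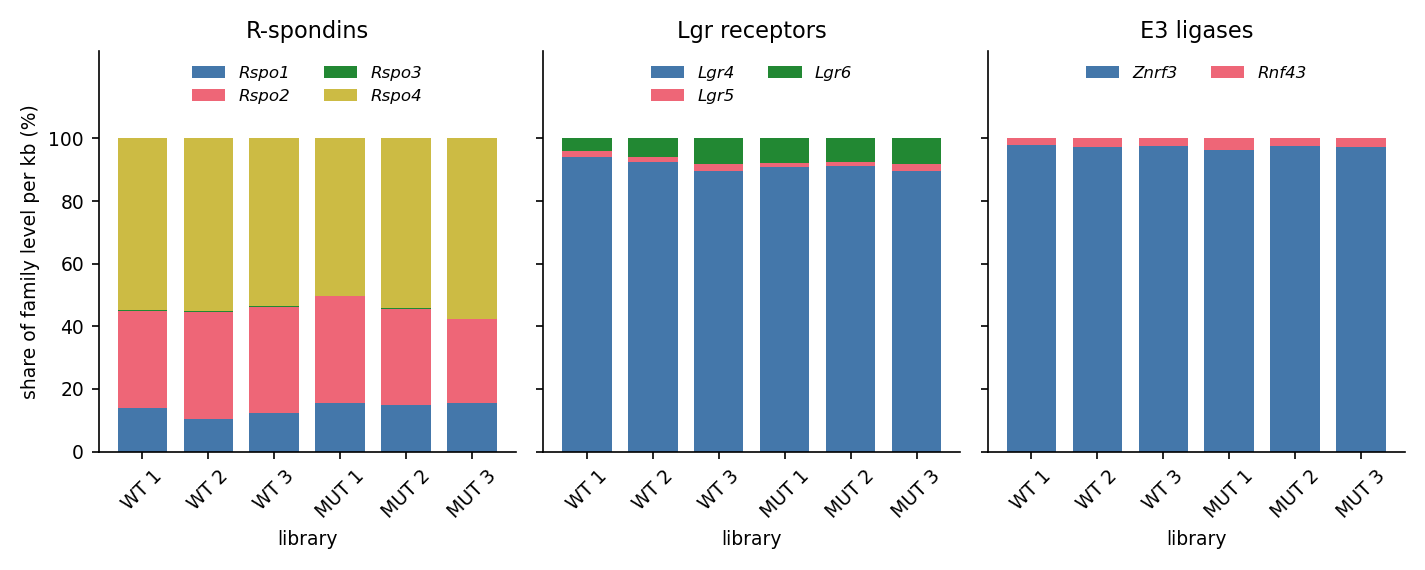
Share of the summed level per kb (percent, vertical axis) held by each member of the 3 families in each of the 6 libraries (horizontal axis). Colors mark the genes named above the bars. *Rspo4* holds between 50.2% and 57.6% of the R-spondins, *Lgr4* between 89.4% and 94.1% of the receptors and *Znrf3* between 96.4% and 97.7% of the ligases.

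Among the receptors, *Lgr4* was by far the most abundant. It is the receptor with the broadest expression in mouse tissues. *Lgr4*, on chromosome 2 from 109917647 to 110014257 (plus strand), had 681, 671 and 630 counts in WT and 608, 700 and 711 counts in MUT. MUT replicate 1 had the lowest count and the other MUT libraries the highest. Its levels averaged 28.4 ± 1.59 CPM for WT against 29.1 ± 2.20 CPM for MUT (SD, n = 3 each). The log2 fold change of 0.04 (SE 0.09, 95% interval -0.17 to 0.25) had an interval that lay within a 1.5-fold change. *Lgr4* held 92.0 ± 2.23% of the receptor level per kb in WT and 90.5 ± 0.926% in MUT.

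*Lgr6*, known as a marker of epidermal stem cells, had the highest fold change estimate of the 8 genes, on few counts. It lies on chromosome 1 from 134983301 to 135105276 (minus strand) and had 34, 49 and 66 counts in WT and 62, 67 and 77 counts in MUT. WT replicate 3 lay within the MUT range, while each MUT library exceeded the WT library of the same number. Levels had a mean of 2.12 ± 0.652 CPM for WT against 2.97 ± 0.296 CPM for MUT (SD, n = 3 each). Its log2 fold change was 0.48 (SE 0.25, 95% interval -0.09 to 1.06), with an unadjusted p of 0.0898 and an adjusted p of 0.998 from edgeR. With the replicate number as a block, edgeR gave 0.51 (95% interval 0.03 to 0.98), an unadjusted p of 0.0402 and an adjusted p of 0.721. DESeq2 gave *Lgr6* an unadjusted p of 0.121 without the block and 0.162 with it. Without WT replicate 1 the unblocked estimate was 0.27, and without WT replicate 3 it was 0.73.

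*Lgr5*, the intestinal stem cell marker, lies on chromosome 10 from 115450311 to 115587780 (minus strand) and had 24, 23 and 28 counts in WT and 12, 19 and 31 counts in MUT. MUT held its lowest and its highest library. The highest, MUT replicate 3, was also the highest library for *Rspo4*, *Lgr6* and, narrowly, *Lgr4*, but the lowest for *Rspo2*. It was the library with the high Leydig cell markers (67.3 CPM), and the part of these cells in any of these values was not tested. Mean levels were 1.07 ± 0.102 CPM for WT against 0.891 ± 0.404 CPM for MUT (SD, n = 3 each), a log2 fold change of -0.26 (SE 0.34, 95% interval -1.05 to 0.52). Without MUT replicate 3 the log2 fold change was -0.66 (adjusted p = 0.659 from edgeR), and without MUT replicate 1 it was -0.0023.

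Of the ligases, *Znrf3* lies on chromosome 11 from 5276324 to 5444847 (minus strand) and had 1563, 1452 and 1246 counts in WT and 1460, 1588 and 1555 counts in MUT. WT replicate 3 was the lowest library, WT replicate 2 (1452 counts) also lay just below the MUT range, and the groups overlapped through WT replicate 1 alone. Levels had a mean of 61.0 ± 7.88 CPM for WT against 66.4 ± 2.53 CPM for MUT (SD, n = 3 each), with a log2 fold change of 0.12 (SE 0.10, 95% interval -0.10 to 0.34). Without WT replicate 3 it was 0.03. *Rnf43*, on the same chromosome from 87662722 to 87735539 (plus strand), had 30, 36 and 27 counts in WT and 45, 34 and 35 counts in MUT. MUT replicate 1 stood above the rest and the groups overlapped. Its levels averaged 1.33 ± 0.199 CPM for WT against 1.65 ± 0.278 CPM for MUT (SD, n = 3 each), a log2 fold change of 0.31 (SE 0.24, 95% interval -0.23 to 0.85). Without MUT replicate 1 it was 0.15. *Znrf3* held 97.4 ± 0.320% of the ligase level per kb in WT and 97.1 ± 0.582% in MUT.

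The ratios between the families also overlapped between the groups. The R-spondins summed to 4.44 ± 0.309 times the level per kb of the receptors in WT (SD, n = 3) and to 4.58 ± 0.526 times in MUT. The ligases summed to 1.51 ± 0.147 times the receptors in WT and to 1.59 ± 0.0961 times in MUT.

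In 81 further genes of the Wnt pathway, arranged in 6 lists, no gene passed the test either. Of these, 70 were tested and 0 were called higher or lower at the FDR of 0.1, with a lowest adjusted p of 0.998 from edgeR, and 2 of the 70 had an unadjusted p under 0.05, where 2.78% of all genes did. The log2 fold change was positive for 48 of the 70 (68.6%, against 51.8% of all genes), with a median of 0.07 against 0.0066. It was positive for 9 of 14 Wnt ligands, 8 of 15 receptors, 9 of 12 antagonists, 13 of 17 intracellular components, 8 of 9 targets and 1 of 3 other R-spondin or LGR partners. All MUT libraries were above all WT libraries for 9 of the 70 genes (12.9%, against 4.69% of all genes) and below them for 2 (2.86%, against 3.00%). Without WT replicate 3 the median over the 70 genes was 0.02.

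The gene with the highest level per kb in each of the 6 lists had overlapping groups. These were the ligand gene *Wnt5b* (4.60 CPM per kb), the receptor tyrosine kinase-like gene *Ryk* (31.6), the antagonist family gene *Dkk3* (10.2), the transcription factor gene *Tcf7* (109.5), the cyclin gene *Ccnd1* (22.7) and the heparan sulfate proteoglycan gene *Sdc4* (219). Their log2 fold changes ran from -0.05 for *Ryk* to 0.15 for *Ccnd1*. *Axin2*, a negative regulator widely used as a readout of β-catenin activity, had 919, 973 and 657 counts in WT and 984, 1020 and 975 in MUT. WT replicate 3 stood far below the other 5 libraries, and in TMM-normalized CPM all MUT libraries were above all WT ones. That split was narrow and rested on the scaling. WT replicate 2 and MUT replicate 3 had 973 and 975 counts, and their DESeq2 size factors (1.011 and 1.024) put WT replicate 2 higher. Mean levels were 36.5 ± 7.60 CPM for WT against 43.0 ± 1.28 CPM for MUT (SD, n = 3 each), with a log2 fold change of 0.24 (SE 0.14, 95% interval -0.09 to 0.56, adjusted p = 0.998 from edgeR).

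The largest estimates among pathway genes with the groups apart were those of *Dkk2*, *Lef1* and *Wnt2b*. *Lef1*, a TCF/LEF transcription factor gene, had 312, 333 and 328 counts in WT and 447, 430 and 394 in MUT. Its WT libraries lay close together and below all MUT ones, at 13.9 ± 0.301 CPM (SD, n = 3) against 18.3 ± 1.37 CPM (SD, n = 3). The log2 fold change was 0.40 (SE 0.11, 95% interval 0.16 to 0.64), with an unadjusted p of 0.00479 and an adjusted p of 0.998 from edgeR. The antagonist *Dkk2* had 22, 28 and 24 counts in WT and 17, 17 and 15 in MUT (log2 fold change -0.58, SE 0.25, adjusted p = 0.998 from edgeR). The ligand *Wnt2b* had 46, 38 and 49 counts in WT and 49, 60 and 64 in MUT (log2 fold change 0.39, SE 0.21, adjusted p = 0.998 from edgeR). WT replicate 3 and MUT replicate 1 tied at 49 counts, so the split of its groups rested on the normalization (TMM factors 1.043 and 0.9776).

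**Figure D4:**
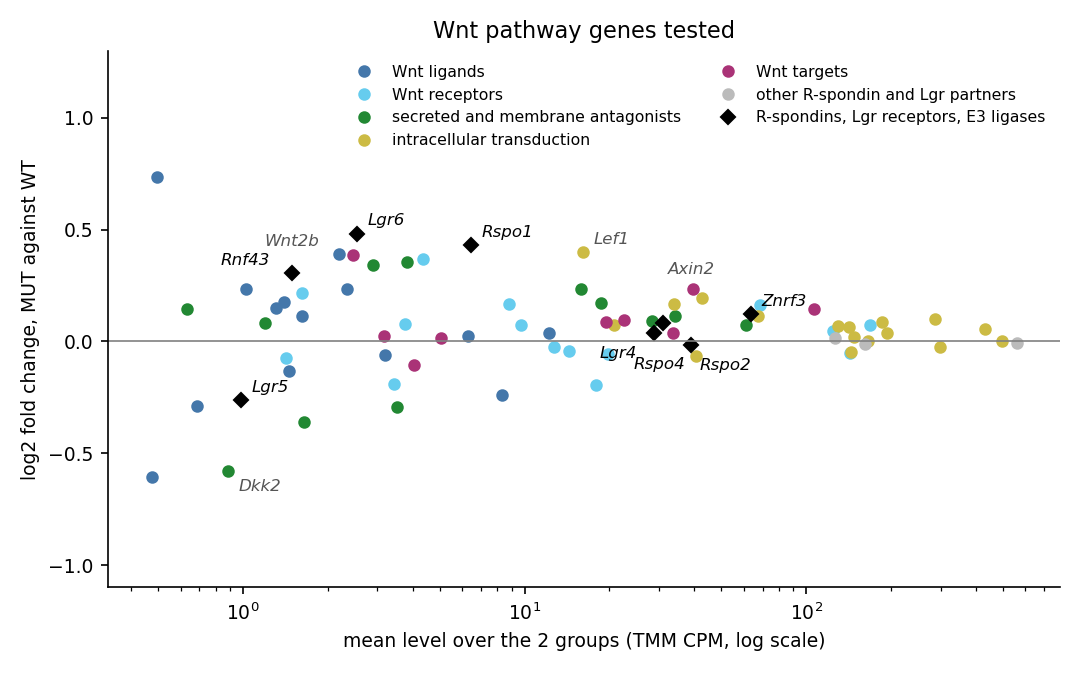
Log2 fold change of MUT against WT (vertical axis) against the mean level in CPM (horizontal log axis) for the 70 pathway genes tested, colored by list, and for the 8 R-spondin, Lgr and ligase genes (black diamonds). No point passed the FDR of 0.1, and the points spread more at low levels.

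The genes with profiles most like each member over the 6 libraries were taken by the smallest root mean square difference of mean-centered log2 CPM among 19655 other genes. For *Rspo1* they were *RP23-369O21.1*, *RP23-234K24.5* and *Alox8* (0.0635 to 0.0674 on the log2 scale), and for *Rspo2* *RP24-209I7.2*, *Gpr27* and *C1ql1* (0.0324 to 0.0397). For *Rspo4* they were *Slc35g2*, *Map3k12* and *Stxbp4* (0.0174 to 0.0243). *Lgr4* was closest to *Zfp935*, *Phc3* and *Zfp445* (0.0117 to 0.0261), and *Znrf3* to *Usp28*, *Syt14* and *Slc5a3* (0.0212 to 0.0251). *Lgr6* was closest to *Dlx6*, *Sapcd1* and *P2ry2* (each 0.108), *Lgr5* to *RP23-96A14.2*, *RP23-239A13.1* and *RP23-47A6.3* (0.0464 to 0.0635), and *Rnf43* to *RP24-417N13.5*, *RP23-222K15.31* and *Ap1m2* (0.0449 to 0.0633). None of these 24 genes belonged to the 6 Wnt pathway lists. Those lists hold only 70 of the 19656 genes tested, so this count says nothing about the members' link to the pathway.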

How the data were processed

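RNA-seq of 6 mice was analysed, 3 WT and 3 MUT by the sample labels, 1 library each. The authors deposited unnormalized counts for each gene name, made with featureCounts 1.6.2 on GENCODE M17 with tdTomato added, per the file headers, with default handling of strand (ignored), multi-mapping and ambiguous fragments (left out). The submitters' processing notes name STAR and GRCm38.p6. Totals were 22729292 to 23550433 counts, and limits from depth cover counting error only. Exons came from the files, and gene starts and ends were the same in GENCODE M21.

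In R 4.3.3, edgeR 4.0.16 used TMM, filterByExpr (19656 genes kept) and the quasi-likelihood test on genotype with Benjamini-Hochberg adjustment over all genes at the FDR of 0.1. Alternatives were DESeq2 1.42.0, limma 3.58.1 voom, DESeq2 size factors, other filters, the replicate number as a block and each mouse left out. Scripts were tested on simulated data. The deviations of same-numbered libraries from their group means correlated at 0.304, 0.156 and 0.395 over 10583 genes above 10 CPM, and those of libraries with different numbers at -0.418 to 0.326, the highest for WT replicate 2 with MUT replicate 1, so the same numbers did not stand out for every library. The main test had no block, and the block is given where it moves a value. The study used wild-type littermates as controls.

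The 9 genes, gene lists and tests were chosen with earlier results of these data known. Genes were named by rule: the 9 genes, *Hras*, tdTomato, *Axin2*, the most abundant gene of each pathway list, the 3 largest changes with groups apart, and the 3 nearest profiles per gene. Replicates were separate mice, and no 2 libraries agreed within counting noise (chi-square per degree of freedom 4.67 to 27.6).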

Additional observations from a re-analysis of the deposited data

How the results depend on the processing

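None of the 9 genes and none of the pathway genes was called under any alternative run. The count over all genes, 2 in edgeR, was 9 with DESeq2, 4 with limma voom, 5 with no filter, 0 with at least 10 counts in every sample and 1 at an FDR of 0.05. Fits with the replicate block called 13 (edgeR) and 55 (DESeq2), and the block changed no call among the 9 genes: *Rspo1* then had a log2 fold change of 0.44 (adjusted p = 0.547 from edgeR) and *Lgr6* of 0.51 (adjusted p = 0.721). With 1 mouse left out the count over all genes ran from 0 to 6. In these fits the sign turned for the genes with estimates near 0, with log2 fold changes from -0.14 to 0.077 for *Rspo2* (positive at 0.025 without WT replicate 2 and 0.077 without MUT replicate 3), -0.010 to 0.14 for *Rspo4* (negative without WT replicate 3) and -0.0062 to 0.093 for *Lgr4* (negative at -0.0054 without WT replicate 3 and at -0.0062 without MUT replicate 2). *Rspo1* ran from 0.33 to 0.60, *Lgr6* from 0.27 to 0.73 and *Rnf43* from 0.15 to 0.41. List medians ran from -0.034 to 0.099 for receptors, 0.020 to 0.16 for antagonists, -0.011 to 0.093 for intracellular components and -0.016 to 0.19 for targets. By counts in place of level per kb, *Rspo4* held 40.1% of the R-spondins in WT and 40.9% in MUT, *Lgr4* 88.3% of the receptors in MUT and *Znrf3* 97.9% of the ligases in WT, since per-kb shares weigh exon length. *Lgr5*, *Lgr6* and *Rnf43* had the fewest counts and the widest intervals of the 8 genes tested.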

Other observations

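Beside *Lef1*, *Wnt2b*, *Axin2* and *Dkk2*, 7 further pathway genes, named after their values were seen, had the groups apart without passing the test (adjusted p = 0.998 for each, edgeR). In all, 12.9% of the pathway genes tested were higher and 2.86% lower in every MUT library, against 4.69% and 3.00% of all genes. The Wnt co-receptor genes *Ror1* and *Ror2* had 34 to 37 and 77 to 102 counts in WT against 39 to 42 and 107 to 124 in MUT. The secreted or membrane antagonists *Sfrp2*, *Notum* and *Kremen2* had log2 fold changes of 0.24, 0.36 and 0.34, and *Tnfrsf19*, a Wnt target of the TNF receptor family, of 0.39. The ligand *Wnt3* was the other gene that was lower in every MUT library, at a mean of 9.02 ± 1.09 CPM for WT against 7.63 ± 0.298 CPM for MUT (SD, n = 3 each), a log2 fold change of -0.24. *Ctnnb1*, which encodes β-catenin, had a mean of 496.7 ± 19.9 CPM for WT against 496.7 ± 20.9 CPM for MUT (SD, n = 3 each).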
